A study of Mus musculus with 6 samples.

Results

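The alpha-arrestin genes Arrdc1, Arrdc2, Arrdc3, Arrdc4 and Txnip were followed through a chromatin immunoprecipitation sequencing (ChIP-seq) experiment on RNA polymerase II (Pol II) in mouse neural progenitor cells (NPCs). They are 5 of the 12107 genes in the deposited counts, and their promoters, gene bodies and regions around the transcription end site (TES) are 15 of 36321 regions. The family was chosen by a measured value, the KO over WT difference at the Arrdc2 promoter, and the other members came in by name. The KO against WT values of the family are therefore descriptions, and so are values built on the Arrdc2 promoter level. Where the fit across all genes called a family region, this is stated as a count, and nothing is read from it. Arrdc5, a further gene of this family, was not analysed here.

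Pol II occupancy was compared between Armc5-/- (KO) NPCs and wild-type (WT) NPCs, with 3 libraries each, numbered as replicate pairs 1 to 3. ARMC5, a protein with armadillo repeats and a BTB domain, works together with the ubiquitin ligase scaffold CUL3, and the comparison asked where on chromatin Pol II differs when it is missing. In both groups the cells were second-passage neurospheres grown with EGF from e13.5 ganglionic eminences, and the labels give the strain as 129 sv X CD1 throughout, whereas the study's methods name a different F1 background that involves C57BL/6. The deletion is carried by all cells of a KO fetus, and the cells had been expanded in culture, which limits both groups as a model of the embryonic brain. Reads over Armc5 itself were not analysed here, so the genotype labels were not checked by the targeted gene.

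Alpha-arrestins are adaptor proteins with an arrestin fold. Short proline-rich motifs in their tails bind the WW domains of NEDD4-family ubiquitin ligases, and the arrestin brings the ligase to a membrane protein that is then ubiquitinated and sorted away from the cell surface. Txnip and Arrdc4 are also glucose-responsive genes, driven by the Mondo and MLX transcription factors. Pol II over a promoter is mostly initiating or paused enzyme, whereas Pol II over a gene body is mostly elongating enzyme.

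The libraries held 25199455, 19748346 and 16056262 counted reads in KO pairs 1, 2 and 3 and 18863084, 23808344 and 14528870 in WT pairs 1, 2 and 3. Promoters took 6.88 to 12.2% of these reads in KO and 6.04 to 11.2% in WT, and pair 3 had the lowest share in both groups. Levels are given as TMM-scaled CPM (the usual counts-per-million scale, here relative to all counted regions). Reads over the gene bodies of 4 Y-linked genes summed to 0.731 CPM in the WT library of pair 3. In the other 5 libraries they summed to between 106 and 186, so the WT library of pair 3 stood apart. Its KO partner had 130 CPM. Pair 3 thus differed in Y-linked signal as well as in genotype, and these cannot be told apart within that pair. Fits without the WT library of pair 3 are given beside the family values that moved most. With the pair as a block, leaving out 1 library gives nearly the same fit as leaving out its pair. A shift in such a fit can therefore not be assigned to that library alone. Of 13 neural precursor markers 12 were measured, with summed gene body levels of 545 to 964 CPM in KO and 535 to 920 in WT and a median density at percentile 96.0 of all genes. The 6 measured of 7 neuron markers summed to 1011 to 1280 CPM in KO and 1023 to 1374 CPM in WT, with a median density at percentile 14.4. Also measured were 1 of 4 astrocyte markers (S100b, percentile 60.1), 2 of 5 oligodendrocyte markers (Sox10 and Mbp, median at percentile 52.4) and 1 of 4 endothelial markers (Kdr, percentile 4.43), while the 7 microglia and blood markers and the 5 mesenchymal markers were not analysed here.

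The Arrdc2 promoter carried more Pol II in every KO library than in any WT library. Arrdc2, an arrestin-domain adaptor known as a glucocorticoid-responsive gene of skeletal muscle, lies on the minus strand at chr8:70835129-70839720 (GRCm38), in 7 GENCODE transcripts of up to 8 exons that begin at 6 start sites spread over 3133 bases. The sources used here do not say which start site the authors took for the windows, and positions below follow the RefSeq gene extent, which puts the promoter window at chr8:70839620-70840120. The 250 bases before the RefSeq start (RefSeq, GRCm38.p6, chr8:70839721-70839970, minus strand) are printed because they lie inside the window with the highest KO over WT value of the family. Capitals mark CCAAT and GC boxes:
Arrdc2: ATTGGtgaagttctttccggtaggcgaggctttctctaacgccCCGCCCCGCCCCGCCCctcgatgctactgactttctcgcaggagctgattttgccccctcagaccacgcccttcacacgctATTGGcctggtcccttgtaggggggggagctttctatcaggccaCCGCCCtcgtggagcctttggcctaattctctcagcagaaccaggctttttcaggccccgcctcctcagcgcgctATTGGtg

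Searched on both strands, this stretch held 3 matches to CCAAT, beginning 250, 126 and 7 bases before the start, and 4 matches to GGGCGG, of which 3 overlap each other. Among 32851 RefSeq promoters, taken from 250 bases before to 50 after each start, 37.4% held CCAAT and 35.7% held GGGCGG, so both are common letters at mouse promoters. No match to the E-box CACGTG (in 7.15% of promoters), the TATA box TATAAA (13.6%), the FOXO element GTAAACA (3.65%), the glucocorticoid response element (GNACA and TGTNC 3 bases apart, 0.475%), the cAMP response element TGACGTCA (1.79%) or the AP-1 site TGANTCA (7.81%) was found in the Arrdc2 promoter. These motifs were chosen after the sequences had been seen, and a match describes letters, not a bound site.

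At the Arrdc2 promoter 151, 233 and 131 reads were counted in KO pairs 1, 2 and 3 and 59, 98 and 22 reads in WT pairs 1, 2 and 3. The levels were 5.43, 11.2 and 9.27 CPM in KO and 2.88, 3.88 and 1.79 CPM in WT. The groups did not overlap, with a mean of 8.63 ± 2.92 CPM in KO and 2.85 ± 1.05 CPM in WT (SD, n = 3 each). The KO to WT difference was 0.91, 1.52 and 2.35 on the log2 scale in pairs 1, 2 and 3, and the limma-voom estimate with the pair as a block was a log2 fold change of 1.50 ± 0.22 (SE), or 2.83-fold.

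Within each pair the exact 95% Poisson intervals of KO and WT stood apart. In pair 1 the interval was 4.60 to 6.37 CPM for KO and 2.19 to 3.72 CPM for WT. In pair 2 it was 9.79 to 12.7 CPM for KO and 3.15 to 4.73 CPM for WT, and in pair 3 it was 7.75 to 11.0 CPM for KO and 1.12 to 2.71 CPM for WT. These intervals cover counting error only. The family was chosen by this same difference, so nothing is read from their separation. A larger share of cells with Pol II at a gene and more Pol II per cell cannot be told apart in such bulk libraries, and since no spike-in was used here, a change shared by all regions would not be seen.

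Of the 5 family promoters, 1 was called at an adjusted p under 0.1, that of Arrdc2, while 0.173% of all promoters were called, 20 with more and 1 with less signal in KO. The Arrdc2 promoter was also the only family region whose KO and WT libraries did not overlap, which held for 2.57% of all promoters, 2.1% of all gene bodies and 4.09% of all TES regions. The call was lost when the replicate block was left out (log2 fold change 1.48), a fit in which limma called 0 regions of any gene and 127 had an unadjusted p under 0.05. It was also lost without pair 2 (1.51) and without the WT library of pair 2 (1.50), and without the WT library of pair 3 the log2 fold change was 1.28. Because this contrast led to the choice of the family, nothing is read from the call, from the fits that kept it or from these counts.

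Over the Arrdc2 gene body, from 100 bases after the start to 100 before the end of the gene, 1407, 696 and 349 reads were counted in KO and 707, 801 and 280 in WT. The levels were 50.6, 33.4 and 24.7 CPM in KO and 34.5, 31.7 and 22.7 CPM in WT. KO was above WT in each pair, by 0.55, 0.07 and 0.12 on the log2 scale, but the groups overlapped, with means of 36.2 ± 13.2 CPM in KO and 29.7 ± 6.15 CPM in WT. The fitted log2 fold change was 0.29 ± 0.10 over all libraries and 0.09 without either library of pair 1.

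In the Arrdc2 TES region, which reaches 2000 bases past the gene, the levels were 2.88, 2.25 and 3.96 CPM in KO and 3.03, 2.85 and 2.36 CPM in WT. The groups overlapped fully at 3.03 ± 0.866 and 2.74 ± 0.348 CPM in KO and WT, and the log2 fold change was 0.04 ± 0.23. Without the WT library of pair 3 this value was -0.19, so its direction rested on pair 3. Of the reads over the gene's 3 regions, the promoter held 19.2 ± 8.63% in KO and 7.95 ± 1.87% in WT, and the gene body held 74.1 ± 10.7% in KO and 84.2 ± 1.50% in WT.

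**Figure D1:**
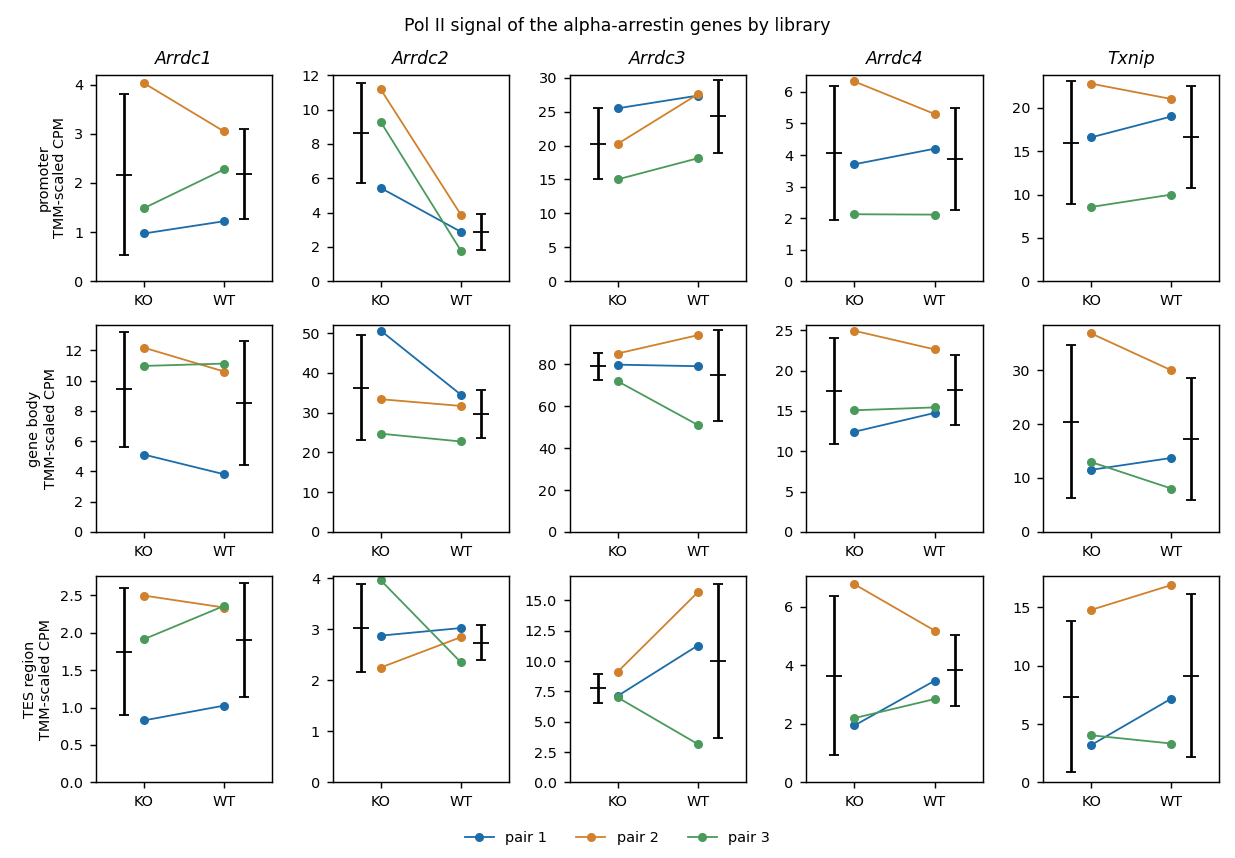
Pol II signal in TMM-scaled CPM for the promoter (top row), gene body (middle row) and TES region (bottom row) of each alpha-arrestin gene, with KO left of WT, a line joining the libraries of each replicate pair, and bars for the mean ± SD of 3 libraries. The Arrdc2 promoter is the panel in which all 3 KO libraries, at 5.43 to 11.2 CPM, lie above all 3 WT libraries, at 1.79 to 3.88 CPM.

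In WT, the log2 ratio of promoter density to gene body density, in CPM per kilobase, was lower for Arrdc2 than for its relatives. The Arrdc2 promoter signal is part of the difference by which the family was chosen. That choice favours a low WT and a high KO level there. The Arrdc2 ratios and their place among the genes are therefore descriptions, and nothing is read from them. Lengths were taken from RefSeq, which gave one for 11935 genes, and the ratio could be formed for 11883 genes. For Arrdc2 the ratio was -0.09, 1.56 and 1.72 in KO pairs 1, 2 and 3 and -0.45, 0.10 and -0.53 in WT. The WT mean of -0.29 ± 0.35 means that promoter density was 0.816 times gene body density, and it stood at percentile 3.65 of all genes, whose WT median was 2.74, or 6.70-fold. The 6 annotated start sites of Arrdc2 spread over 3133 bases, which reach into the gene body window. Pol II at such a start would be counted as gene body signal, and its share was not tested. The KO mean was 1.06 ± 1.00, still below the KO median of all genes of 2.76, and KO was above WT by 0.36, 1.45 and 2.26 in pairs 1, 2 and 3.

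The other members had ratios near the middle of all genes. Arrdc3 had 2.64 ± 0.31 in KO and 3.04 ± 0.15 in WT, and Txnip had 2.63 ± 0.68 in KO and 2.98 ± 0.53 in WT. Arrdc4 had 2.41 ± 0.57 in KO and 2.33 ± 0.55 in WT. Arrdc1 had 2.00 ± 0.65 in KO and 2.38 ± 0.34 in WT, which in WT is percentile 40.3 of all genes. In WT the highest Arrdc2 library, at 0.10, lay below every library of the other members. In KO the ranges overlapped, with Arrdc2 up to 1.72 and Arrdc1 down to 1.41. The rest of the order is given for WT. The lowest Arrdc3 library, at 2.87, lay above the highest libraries of Arrdc1, at 2.65, and of Arrdc4, at 2.78, and the remaining orders were within the spread.

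**Figure D2:**
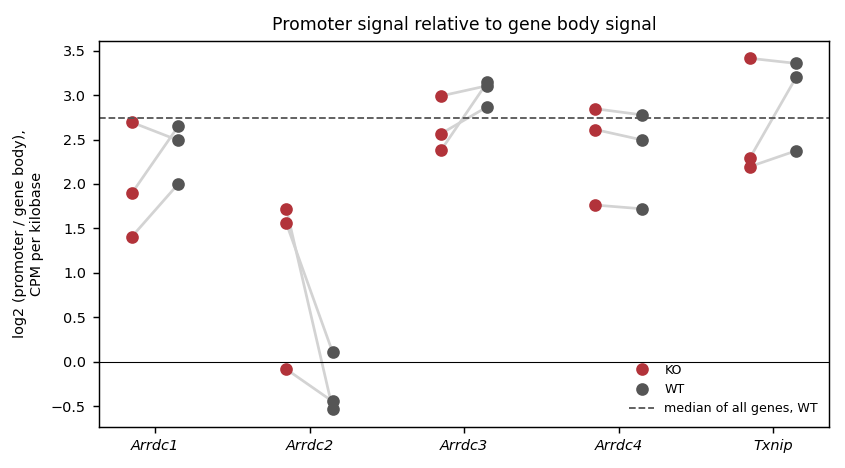
Promoter density over gene body density on the log2 scale (CPM per kilobase) in each library, KO in red at left and WT in grey at right for each gene, with lines joining replicate pairs and a dashed line at the median of all genes in WT, 2.74. Arrdc2 lies near or below 0 in WT and in the KO library of pair 1, and at 1.56 and 1.72 in the other KO libraries, while the other genes lie between 1.41 and 3.41.

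Txnip, whose protein binds thioredoxin and restrains glucose uptake, had one of the stronger promoter signals of the family. It lies on the plus strand at chr3:96557957-96561857, with 6 transcripts from 6 start sites over 2097 bases, and all 3 of its windows fall within the antisense gene Gm15441, whose Pol II cannot be told apart from that of Txnip in these counts. The 150 bases before its start (RefSeq, GRCm38.p6, chr3:96557807-96557956, plus strand) are shown for their known glucose-responsive letters. Capitals mark the pattern of 2 CACGAG copies 5 bases apart, which in human TXNIP is known as a carbohydrate response element, together with CCAAT boxes and the FOXO element GTAAACA:
Txnip: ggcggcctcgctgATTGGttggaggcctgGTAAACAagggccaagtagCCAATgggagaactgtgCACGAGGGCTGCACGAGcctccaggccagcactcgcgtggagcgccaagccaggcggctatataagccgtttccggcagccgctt

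The carbohydrate response pattern begins 85 bases before the start of Txnip and was found in 1 of the 32851 promoters, that of Txnip itself (0.00304%). The FOXO letters begin 121 bases and the 2 CCAAT boxes 137 and 102 bases before the start. A glucocorticoid response element pattern lies further out, 172 bases before the start.

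The Txnip promoter had 16.6, 22.8 and 8.57 CPM in KO and 19.0, 21.0 and 9.99 CPM in WT. The groups overlapped, with a log2 fold change of -0.06 ± 0.11. Over the gene body the levels were 11.5, 36.8 and 13.0 CPM in KO and 13.7, 30.0 and 8.04 CPM in WT, a log2 fold change of 0.21 ± 0.13 with KO higher in 2 of 3 pairs. The TES region had 3.20, 14.8 and 4.04 CPM in KO and 7.18, 16.9 and 3.33 CPM in WT, a log2 fold change of -0.39 ± 0.20. With 1 library or pair left out, the gene body value ranged between 0.09 and 0.38 and the TES value between -0.62 and -0.11, and without the WT library of pair 3 they were 0.10 and -0.51. The promoter value turned to 0.03 without either library of pair 1. Pair 2 exceeded the other pairs in both groups in each of the 3 regions, and this spread was larger than any difference between KO and WT. Txnip was the member with the largest share of its reads in the promoter, 39.0 ± 12.2% in KO and 41.8 ± 9.39% in WT.

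Arrdc4, the closest relative of Txnip in its response to glucose and also known for a part in the release of extracellular vesicles, lies on the minus strand at chr7:68736994-68749238, with 2 transcripts whose starts are 53 bases apart. The bases from 250 to 41 before its RefSeq start (RefSeq, GRCm38.p6, chr7:68749279-68749488, minus strand) are shown as a contrast to Arrdc2, with capitals for the E-box CACGTG and for CCAAT boxes:
Arrdc4: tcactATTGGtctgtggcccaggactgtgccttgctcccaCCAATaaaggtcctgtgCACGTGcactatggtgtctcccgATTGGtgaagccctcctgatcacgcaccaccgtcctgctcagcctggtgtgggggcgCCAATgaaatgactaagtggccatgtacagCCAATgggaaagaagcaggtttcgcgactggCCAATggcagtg

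The E-box begins 193 bases before the start. There were 6 CCAAT matches, against 3 in Arrdc2, 2 in Txnip, at most 1 in each searched Arrdc3 promoter and 0 in Arrdc1. None of the other members' promoters held CACGTG in the searched window. At the Arrdc4 promoter the levels were 3.71, 6.33 and 2.12 CPM in KO and 4.20, 5.30 and 2.11 CPM in WT, and the log2 fold change was 0.05 ± 0.18. Its gene body had 12.4, 24.9 and 15.1 CPM in KO and 14.7, 22.6 and 15.4 CPM in WT, with a log2 fold change of -0.02 ± 0.12. Its TES region had 1.94, 6.76 and 2.19 CPM in KO and 3.47, 5.18 and 2.84 CPM in WT, with a log2 fold change of -0.13 ± 0.24. Without pair 1 the 3 values were 0.20, 0.09 and 0.20, and without pair 2 they were -0.11, -0.15 and -0.64, so none kept its direction. In all 3 regions the groups overlapped and pair 2 was highest in both.

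Arrdc3, an adaptor that takes part in the trafficking of the beta-2 adrenergic receptor and the degradation of integrin beta 4, had the highest mean promoter signal of the family. Its library range overlapped that of Txnip in both groups. It lies on the plus strand at chr13:80883384-80896042, with 6 transcripts from 5 start sites over 7134 bases, and its gene body contains 1700023H06Rik on the opposite strand, whose reads cannot be told apart from its own. The promoter had 25.5, 20.2 and 15.0 CPM in KO and 27.3, 27.5 and 18.1 CPM in WT. KO was below WT in each of the 3 pairs, by -0.10, -0.44 and -0.27 on the log2 scale, although the groups overlapped, and the fitted log2 fold change was -0.26 ± 0.10, which did not reach the call.

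The Arrdc3 gene body had 79.9, 85.2 and 72.0 CPM in KO and 79.2, 94.0 and 51.1 CPM in WT, a log2 fold change of 0.06 ± 0.09, which turned to -0.06 without either library of pair 3. Its TES region had 7.13, 9.11 and 7.01 CPM in KO and 11.3, 15.7 and 3.17 CPM in WT. The pairs went opposite ways there, at -0.66, -0.78 and 1.13 on the log2 scale, and the fitted log2 fold change was -0.41 ± 0.24. Without pair 3 or either of its libraries, which are nearly the same fit, it was -0.73 to -0.71 and was called. It was -0.04 without either library of pair 2, -0.02 without that pair, -0.10 with the deposited log2 values and -0.04 with no replicate block, none of them called.

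Arrdc1, which recruits the ESCRT protein TSG101 to the plasma membrane and gives rise to budding vesicles, had the lowest mean Pol II signal. It lies on the minus strand at chr2:24925352-24935335, with 12 transcripts from 11 start sites over 8052 bases. Its promoter had 0.972, 4.03 and 1.49 CPM in KO and 1.22, 3.05 and 2.27 CPM in WT, with a mean of 43.7 reads. The promoter log2 fold change of 0.03 ± 0.26 kept its sign in 9 of 16 alternative fits. It was -0.46 without pair 2 and 0.21 without the WT library of pair 3. Its gene body had 5.11, 12.2 and 11.0 CPM in KO and 3.81, 10.6 and 11.1 CPM in WT, a log2 fold change of 0.19 ± 0.14. Its TES region had 0.828, 2.49 and 1.91 CPM in KO and 1.03, 2.33 and 2.36 CPM in WT, a log2 fold change of -0.11 ± 0.25, which was -0.03 without the WT library of pair 3 and -0.30 without pair 2. KO and WT overlapped in all 3 regions.

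Across the family, 3 promoters were higher and 2 lower in KO, with a median log2 fold change of 0.03 (-0.26 to 1.50), while over all promoters 6638 were higher and 5469 lower with a median of 0.03. Of the gene bodies 4 were higher and 1 lower, with a median of 0.19 (-0.02 to 0.29), while over all gene bodies 5488 were higher and 6619 lower with a median of -0.01. Of the TES regions 1 was higher and 4 lower, with a median of -0.13 (-0.41 to 0.04), while over all TES regions 4169 were higher and 7938 lower with a median of -0.08. By limma 0 of 5 gene bodies and 0 of 5 TES regions were called, where 0.206% of all gene bodies and 0.0248% of all TES regions were. At an unadjusted p under 0.05 the numbers were 1 and 0, beside 8.41% of all gene bodies and 6.24% of all TES regions, and edgeR and DESeq2 also called 0 of each.

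**Figure D3:**
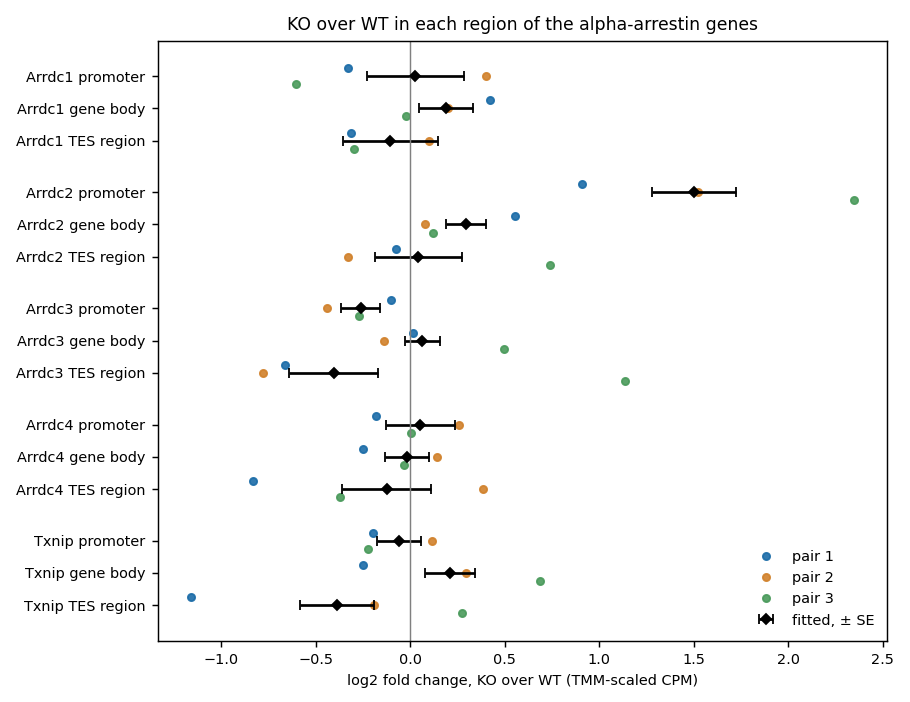
The log2 fold change of KO over WT for the 15 regions of the alpha-arrestin genes, with a coloured point for each replicate pair and a black diamond for the limma-voom estimate ± SE. The Arrdc2 promoter stands at 1.50 with its pairs at 0.91, 1.52 and 2.35, and the other 14 estimates lie between -0.41 and 0.29.

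In WT the order of the family by density, in CPM per kilobase, differed between promoters and gene bodies. At promoters Arrdc3 had 48.7 ± 10.8 and Txnip 33.3 ± 11.7 CPM per kilobase, at percentiles 98.9 and 94.3 of all promoters, and their library ranges, 36.2 to 55.1 and 20.0 to 42.0, overlapped. Arrdc4 at 7.74 ± 3.24, Arrdc2 at 5.70 ± 2.09 and Arrdc1 at 4.36 ± 1.83 CPM per kilobase followed, at percentiles 36.5, 28.7 and 22.9, again with overlapping ranges. The gap between Txnip, whose lowest library had 20.0, and Arrdc4, whose highest had 10.6, exceeded the spread. In KO the mean of the Arrdc2 promoter, 17.3 ± 5.85 CPM per kilobase, lay between Txnip at 32.0 ± 14.3 and Arrdc4 at 8.11 ± 4.25. Its library range, 10.9 to 22.3, overlapped those of Txnip, 17.1 to 45.6, and Arrdc4, 4.25 to 12.7. The Arrdc2 promoter level entered the choice of the family, so its place in either group is a description.

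Over gene bodies Arrdc2 came first, at 6.75 ± 1.40 CPM per kilobase in WT and at percentile 96.1 of all genes. Arrdc3 at 6.00 ± 1.75 and Txnip at 4.66 ± 3.08 CPM per kilobase followed with ranges that overlapped that of Arrdc2. Arrdc4 had 1.46 ± 0.363 and Arrdc1 0.870 ± 0.417 CPM per kilobase, at percentiles 53.0 and 16.5. The lowest Arrdc4 library, at 1.22, lay above the highest Arrdc1 library, at 1.14, and the highest Arrdc4 library, at 1.88, lay below the lowest Txnip library, at 2.17. In the TES region the highest WT means were those of Arrdc3 at 4.78 ± 3.02 and Txnip at 4.35 ± 3.33 CPM per kilobase. Arrdc4 at 1.82 ± 0.577, Arrdc2 at 1.31 ± 0.166 and Arrdc1 at 0.907 ± 0.363 followed. The ranges of Arrdc3, 1.51 to 7.46, and Txnip, 1.59 to 8.05, overlapped that of Arrdc4, 1.35 to 2.47. The Arrdc4 range in turn overlapped that of Arrdc2, 1.12 to 1.44. The WT range of Arrdc2 thus overlapped that of Arrdc3 over gene bodies and those of Arrdc1 and Arrdc4 at promoters.

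The replicate pairs differed strongly in these genes. Differences between pairs were not the value by which the family was chosen, although the Arrdc2 promoter call depended on the pair as a block. A limma F test between pairs, added after the values had been seen, called 5 of 5 promoters, 5 of 5 gene bodies and 4 of 5 TES regions, all but that of Arrdc2, where 82.4% of all promoters, 82.9% of all gene bodies and 59.6% of all TES regions were called. Such calls were therefore common to most genes. The direction was less common: pair 2 had the highest mean CPM in 12 of the 15 family regions, and in 25.3% of all regions. By kind these were 4 of 5 promoters (45.6% of all promoters), 4 of 5 gene bodies (14.2%) and 4 of 5 TES regions (16.3%). The 15 regions belong to 5 genes and share libraries, and this count was not tested.

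The Txnip TES region, the Arrdc1 promoter and the Txnip gene body varied most between pairs. In the Txnip gene body the mean CPM of the highest pair was 3.18 times that of the lowest, at percentile 97.8 of all gene bodies, whose median was 1.47. In the TES region it was 4.30 times, at percentile 98.4 and beside a median of 1.61. At the Arrdc1 promoter it was 3.23 times, at percentile 90.4 and beside a median of 2.08. The Arrdc1 gene body had a ratio of 2.55, at percentile 90.4, and the Arrdc2 and Arrdc3 gene bodies had ratios of 1.79 and 1.46, at percentiles 71.9 and 48.7. The labels do not say what a pair shares.

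Over the 6 libraries, the promoters whose log2 CPM was most like that of Arrdc2 were Smpdl3b, Chchd2, Ube2s, Tm7sf3 and Hjurp, with Pearson correlations of 0.99 for the first 4 of them and 0.98 for Hjurp among 11258 candidates, whose 95th percentile was 0.71. These points share libraries, depth and genotype, and the values are descriptions. They include the KO to WT difference by which Arrdc2 was chosen, and the Chchd2 and Tm7sf3 promoters were themselves called (limma adjusted p = 0.0598 and 0.0874). The other alpha-arrestin promoters were not among the most like Arrdc2, at 0.31 for Arrdc4, 0.18 for Arrdc1, 0.14 for Txnip and -0.32 for Arrdc3. Their ranks in that order were 3083, 4613, 5126 and 10636. For the gene body BC049715, Ggps1, Jtb, Rnf215 and Zfp526 were most like Arrdc2, each with a correlation of 0.99 among 12094 candidates. The family members stood at 0.59 for Arrdc3, 0.19 for Txnip, -0.20 for Arrdc4 and -0.63 for Arrdc1, beside a 95th percentile of 0.86. Their ranks in that order were 2233, 3754, 4972 and 6866.

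Genes that work with alpha-arrestins or are regulated with them were looked at in 7 lists, of which 59 of 71 genes were measured, in 177 regions. In limma 0 of the 177 regions were called at an adjusted p under 0.1, 19 (10.7%) had an unadjusted p under 0.05, and edgeR and DESeq2 also called 0. Over all 36321 regions 0.135% were called and 8.2% had an unadjusted p under 0.05, so the lists were near the background. The values that follow are therefore levels and estimates, with limma p-values adjusted over all 36321 regions. Directions were also uneven over all genes. In KO 6638 promoters were higher and 5469 lower, 5488 gene bodies higher and 6619 lower, and 4169 TES regions higher and 7938 lower. Direction counts in the lists were not tested against these.

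Among the other arrestin-fold genes, 6 of 9 were measured, and their TES regions were lower in KO in 6 of 6 with a median log2 fold change of -0.22. Over all TES regions 7938 of 12107 were lower, with a median of -0.08. The median was -0.10 at promoters and -0.09 over gene bodies. The smallest p were those of the TES region of Arrb1, a beta-arrestin of G protein-coupled receptors, at -0.45 ± 0.24 (adjusted p = 0.659), and the promoter of Vps26b, a retromer subunit, at -0.22 ± 0.12 (adjusted p = 0.659).

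All 9 NEDD4-family ligases were measured, with 2 gene bodies higher and 7 lower in KO (median -0.08) and 4 promoters higher and 5 lower (median -0.07). The promoter of Itch had 10.5, 8.01 and 2.90 CPM in KO and 12.3, 10.4 and 4.79 CPM in WT, a log2 fold change of -0.35 ± 0.15 (adjusted p = 0.561). The gene body of Wwp2 had a log2 fold change of -0.14 ± 0.06 (adjusted p = 0.568). Both ligases bind proline-rich motifs of alpha-arrestins and both were lower in KO in each pair, within the spread of the libraries. The Smurf2 promoter was called in fits without either library of pair 1 or without that pair, at -0.44 to -0.45, with -0.24 when all libraries were kept.

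Of the ESCRT and vesicle budding partners 9 of 10 were measured, with medians of -0.06, -0.03 and 0.06 at promoters, gene bodies and TES regions. The promoter of Vps4a, the ATPase that takes ESCRT polymers apart and acts in Arrdc1 budding, had 3.71, 6.14 and 3.75 CPM in KO and 3.22, 2.85 and 2.27 CPM in WT. The groups did not overlap, which held for 2.57% of all promoters, and this region was named for its small p. Its log2 fold change was 0.69 ± 0.22 (adjusted p = 0.407). It was called without either library of pair 1 or without that pair, at 0.98 to 0.99. The promoter of Tsg101, the ESCRT protein that Arrdc1 binds, had a log2 fold change of -0.21 ± 0.10 (adjusted p = 0.61) and was lower in KO in each pair.

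In the thioredoxin system, to which Txnip binds, 10 of 12 genes were measured, and 7 gene bodies were higher and 3 lower in KO (median 0.07). The promoter of Txn1, the cytosolic thioredoxin that Txnip inhibits, had 33.5, 21.2 and 17.3 CPM in KO and 26.2, 18.6 and 12.3 CPM in WT. KO was higher in each pair while the groups overlapped, at a log2 fold change of 0.32 ± 0.10 (adjusted p = 0.415). The gene body of the peroxiredoxin Prdx1 had a log2 fold change of 0.23 ± 0.09 (adjusted p = 0.558), with KO higher in 2 of 3 pairs. Promoter and TES medians of the list were 0.05 and 0.02.

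Of the glucose-responsive Mondo and MLX factors 2 of 3 were measured. The gene body of Mlx, the shared partner of these factors, had 20.4, 17.0 and 18.1 CPM in KO and 14.4, 16.0 and 14.5 CPM in WT. The groups did not overlap, which held for 2.1% of all gene bodies, and this region was named for its small p. Its log2 fold change was 0.30 ± 0.12 (adjusted p = 0.539). The TES region of Mlxip, which encodes MondoA, had a log2 fold change of -0.18 ± 0.24 (adjusted p = 0.874).

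Of the reported cargo of the family, 7 of 10 genes were measured, with 6 promoters higher and 1 lower in KO (median 0.18) and gene body and TES medians of 0.09 and 0.03. The gene body of the insulin receptor gene Insr had a log2 fold change of -0.12 ± 0.05 (adjusted p = 0.61), lower in each pair. The TES region of the adrenergic receptor gene Adrb1 had a log2 fold change of 0.45 ± 0.22 (adjusted p = 0.638), higher in each pair.

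Of the glucocorticoid- and FOXO-responsive genes 16 of 18 were measured, with 10 promoters higher and 6 lower in KO (median 0.06), 7 gene bodies higher and 9 lower (median -0.02) and 3 TES regions higher and 13 lower (median -0.13). The gene body of Pik3ip1, an inhibitor of phosphoinositide 3-kinase, had 76.5, 58.4 and 37.8 CPM in KO and 107, 68.2 and 39.2 CPM in WT, a log2 fold change of -0.31 ± 0.08 (adjusted p = 0.304). It was called in fits without either library of pair 3 or without that pair, at -0.35 to -0.36. The promoter of Irs2, an insulin receptor substrate, had 15.5, 14.2 and 11.5 CPM in KO and 12.9, 10.1 and 8.53 CPM in WT, a log2 fold change of 0.38 ± 0.12 (adjusted p = 0.438). The Ddit4 TES region was called without the KO or the WT library of pair 1, at -0.40, with -0.34 when all libraries were kept.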

How the data were processed

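Pol II ChIP-seq libraries of 3 KO and 3 WT NPC cultures were used. The authors trimmed and aligned the reads to GRCm38 (mm10), and HOMER, MACS2, Picard, BWA, Trimmomatic, limma, edgeR and bcl2fastq 2.20 appear in the submitters' processing notes. The authors deposited whole-number read counts per gene for the promoter (400 bases before to 100 after the start), the gene body (100 after the start to 100 before the end) and the TES region (100 before to 2000 after the end), having removed genes without KO signal, and log2 CPM values made from them. The sources used here do not name the annotation behind the windows.

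The deposited counts were tested over all 36321 regions with TMM scaling and limma-voom, the replicate pair as a block, two-sided, and regions were called below 0.1 after Benjamini-Hochberg adjustment of all p-values together (R 4.3.3, edgeR 4.0.16, limma 3.58.1, DESeq2 1.42.0). Groups and pair numbers came from the sample titles. Same-numbered libraries deviated together from their group means (correlations of 0.56 to 0.88 over pairs and kinds of region), and replicate pairs are described in the study's methods, so the block was kept. The labels do not say what a pair shares. No libraries of a group were copies (chi-square per degree of freedom 28.5 to 76.5). Log2 fold changes had a median SE of 0.17 (promoters), 0.09 (gene bodies) and 0.20 (TES regions), and family regions had mean counts of 35.2 to 1607. Likeness used log2 CPM with 0.5 added to the count and regions with a mean of at least 20 counts.

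Named were all family members, the called genes of each list or otherwise the 2 with the smallest p, the 5 promoters and the 5 gene bodies most like Arrdc2, and, chosen after their values were seen, Smurf2 and Ddit4, which were called in other fits. Members and lists were chosen with earlier results of these data known. Alternatives were edgeR, DESeq2, other scalings, a low-count filter, the deposited log2 values, no block, and libraries or pairs left out.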

Additional observations from a re-analysis of the deposited data

How the results depend on the processing

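Over all genes 49 regions were called, and 62 with DESeq2 size factors, 59 with DESeq2, 51 with edgeR, 47 after the low-count filter and 33 with the deposited log2 values. TMM within each kind of region gave 74 calls. With no replicate block, thus ignoring the pairing, limma called 0 regions, 127 had an unadjusted p under 0.05, and the number of family regions called was 0, against 1 with it, while the Arrdc2 promoter kept a log2 fold change of 1.48 ± 0.39. Leaving out libraries or pairs gave 11 to 546 calls over all genes and 0 to 2 in the family: 0 without pair 2 or the WT library of pair 2, where the Arrdc2 promoter lost its call, and 2 without pair 3 or either of its libraries, where the Arrdc3 TES region gained one. Why these calls moved was not tested. The Arrdc2 promoter log2 fold change ranged from 1.28 to 1.76 with libraries left out, and from 1.48 to 1.59 in the 7 other settings, 6 of which kept the call. Of 240 family fold changes under alternatives 234 kept their side of the threshold, 3 lost and 3 gained the call, and no called value changed sign. The sign held in 16 of 16 alternatives for 8 family regions, in 13 for 6 and in 9 for the Arrdc1 promoter. The WT promoter to gene body ratio of Arrdc2 stayed between -0.49 and -0.17 with 1 WT library left out. Depth limits Arrdc1 most, with mean counts of 35.2 in its TES region and 43.7 at its promoter. Positions assume the RefSeq gene extent, and another start site would move the promoter windows.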
